A study of Homo sapiens with 90 samples.

Results

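The cell cycle and DNA replication genes are 40 genes chosen by name, from cyclins and licensing factors to mitotic kinases, out of 19774 genes that a probe set of their own represented on the array. All 40 were measured, and each stands here by its brightest probe set carrying 1 symbol. The 40 genes had 82 such probe sets, and 15 of the genes had 1. The cells were HepaRG, a human hepatoma-derived line whose differentiated cultures hold hepatocyte-like and biliary-like cells. For 24 h they received the triazole fungicide fenbuconazole, the imidazole fungicide imazalil or the chlorophenoxy herbicide 2,4-D. Each chemical was given at 9 concentrations with 3 replicates each (0.001, 0.003 and 0.01 µM, then 0.03, 0.1 and 0.3 µM, then 1, 3 and 10 µM), and the DMSO vehicle, present in every group, was also given alone in 3 samples that served all 3 chemicals. The design asks at which concentration, and with which chemical, expression departs from vehicle.

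Replicates are named here by the code P1, P2 or P3 of the sample labels, and the study's methods state that replicates were independent experiments on independent batches of cells. The labels do not say what P stands for, and that it marks such a batch was assumed here. Values are on a log2 scale from RMA (robust multi-array averaging). The authors ran it on 1 chemical at a time, with the 3 DMSO arrays in each run, so a difference of 1 is a doubling and levels are compared within a chemical's set. Hepatocyte markers measured on these arrays (7 of 8 listed) averaged between 12.1 and 12.7 on every DMSO array, every array of the 5 lowest concentrations and every 10 µM array, against array medians of 2.81 to 2.97 over all probe sets. In the labels, the number in the sample code falls as the concentration rises within each chemical and P code, apart from the lowest pair of concentrations, so concentration and place in that numbering cannot be told apart. The 2,4-D samples of P2 at 0.001 and 0.003 µM carry the same sample code.

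A dividing cell passes through G1, S, G2 and M phases, driven by cyclins bound to cyclin-dependent kinases. In late G1, cyclin D and cyclin E kinases release the E2F factors from the retinoblastoma protein, and E2F target genes supply licensing factors, the MCM helicase and nucleotides for DNA replication. Genes of G2 and mitosis are switched on later through the B-MYB and FOXM1 factors. Before that, the DREAM complex, which reads the CHR promoter element, represses them. Differentiated hepatocytes rarely divide, and HepaRG cells grow until they are confluent and then largely stop, so in bulk RNA from such cultures a change in the share of cycling cells and a change in RNA per cell cannot be told apart.

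Most of these genes were well detected. Averaged over the 30 arrays of a set, 38, 38 and 39 of the 40 lay above the median of all probe sets in the fenbuconazole, imazalil and 2,4-D sets, and 35 in each set lay more than 1 log2 unit above it. TYMS, the thymidylate synthase that makes a DNA precursor, averaged 10.3 in the fenbuconazole set, and RRM2, the small subunit of ribonucleotide reductase, averaged 9.95. CCNB2, a mitotic cyclin, averaged 2.57, 2.36 and 2.58 in the 3 sets and lay below the array median in each, and UBE2C, a ubiquitin-conjugating enzyme of mitotic exit, averaged 2.72, 2.80 and 2.94. For CCNB2 and UBE2C these probe sets give little room to see a fall.

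No member passed the overall test of a response, a limma moderated F over the 9 concentrations against DMSO with the P code as a block, at an adjusted p of 0.05 (Benjamini-Hochberg over all 19774 genes). The same test called 0.521% of all genes for fenbuconazole, 0.617% for imazalil and 0.121% for 2,4-D. At an unadjusted p under 0.05 it held 14 members for each chemical, against 6.29%, 9.03% and 9.87% of all genes. The members with the smallest p were CCNA2, CDK1, KIF20A, NUSAP1 and MCM4 for fenbuconazole, BUB1B, FOXM1, TPX2, MCM6 and TTK for imazalil, and KIF20A, CDC20, E2F1, MKI67 and RRM2 for 2,4-D. Their smallest adjusted limma p was 0.125, 0.0671 and 0.0945 for the 3 chemicals. A linear trend over the treated arrays of imazalil called 3 members, against 1.36% of all genes: MCM3, MCM7 and CDC45, with slopes of 0.08, 0.08 and 0.09 per log10 unit of concentration (limma adjusted p = 0.00825, 0.0216 and 0.0233). That trend called 0 members with fenbuconazole (0.268% of all genes) and with 2,4-D (0.131%).

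Against DMSO at 10 µM, most members read higher with each chemical, but the test called 1 for fenbuconazole, 1 for imazalil and 0 for 2,4-D. The difference was above 0 for 37 of the 40 with fenbuconazole, 36 with imazalil and 35 with 2,4-D, with medians of 0.21, 0.21 and 0.16, where the medians of all genes lay within 0.02 of 0. The background of calls that rose was 0.511%, 0.698% and 0% of all genes for fenbuconazole, imazalil and 2,4-D, and that of calls that fell, where members had 0 in each comparison, was 0.263%, 0.536% and 0%. At an unadjusted limma p under 0.05 the test held 15, 13 and 11 members, against 8.74%, 11.2% and 6.65% of all genes. The same fits gave induced P450 genes much larger values: CYP1A1, the classic target of the aryl hydrocarbon receptor, differed by 2.35, 5.41 and 0.20, CYP2B6, a target of the receptor CAR, by 1.78, 3.33 and -0.03, and CYP3A4, a target of PXR, by 2.23, 2.70 and 0.33. All 3 were called with both fungicides and 0 with 2,4-D. These comparisons share their 3 DMSO samples.

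CCNA2, cyclin A2, which drives S phase and entry into mitosis, was the member called for fenbuconazole. It read 7.59, 7.69 and 7.59 in P1, P2 and P3 at 10 µM and 7.37, 7.23 and 7.28 in the DMSO samples. All treated arrays lay above all vehicle arrays, and the difference was 0.33 ± 0.08 (SE; limma adjusted p = 0.0433). BUB1B, the spindle checkpoint kinase BUBR1, was the member called for imazalil. It read 7.31, 7.56 and 7.37 against 7.07, 7.04 and 6.95 in DMSO, again without overlap, a difference of 0.39 ± 0.09 (limma adjusted p = 0.0214). Leaving out any 1 P code, or any 1 DMSO sample, left 0 members called in both comparisons. For 2,4-D the smallest unadjusted p belonged to BIRC5 (survivin, of the chromosomal passenger complex, 0.33 ± 0.11), BUB1B (0.27 ± 0.09), KIF20A (0.24 ± 0.09), TYMS (0.18 ± 0.08) and TPX2 (0.21 ± 0.09), with adjusted limma p between 0.488 and 0.669.

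Below 10 µM no member passed at any of the 8 concentrations of any chemical. All genes were called at 0.0019%, 0.012% and 0.000632% over these concentrations for fenbuconazole, imazalil and 2,4-D. The median difference of the members from DMSO lay between -0.08 and 0.03 for fenbuconazole, between -0.07 and 0.13 for imazalil and between -0.09 and 0.06 for 2,4-D. The highest of these for imazalil was at 1 µM, where 34 members read above DMSO, 10 of them at an unadjusted p under 0.05, as were 7.09% of all genes. There, BUB1B read 7.34, 7.35 and 7.20 and MCM6, a subunit of the replicative helicase, differed by 0.28 ± 0.09. With 2,4-D, the smallest p below 10 µM belonged to members that read lower than DMSO at 0.03 or 0.1 µM: CDC20, an activator of the anaphase-promoting complex (-0.36 ± 0.08 at 0.1 µM, limma adjusted p = 0.168), KIF20A (-0.33 ± 0.09 at 0.03 µM), E2F1 (-0.36 ± 0.11 at 0.1 µM) and MKI67 (-0.45 ± 0.14 at 0.03 µM), and to CCNE2, which read higher at 1 µM (0.57 ± 0.17). With fenbuconazole they were CDC20 (-0.42 at 0.1 µM), E2F1 (-0.33 at 3 µM), CCND1 (0.39 at 0.003 µM), TOP2A (-0.38 at 0.03 µM) and KIF20A (-0.23 at 0.3 µM), with adjusted limma p between 0.595 and 0.976. With imazalil, beside MCM6 and BUB1B, they were CCNE2 (0.77) and BUB1 (0.45), both at 0.003 µM, and E2F1 (-0.31 at 0.03 µM), with adjusted limma p between 0.371 and 0.786.

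**Figure D1:**
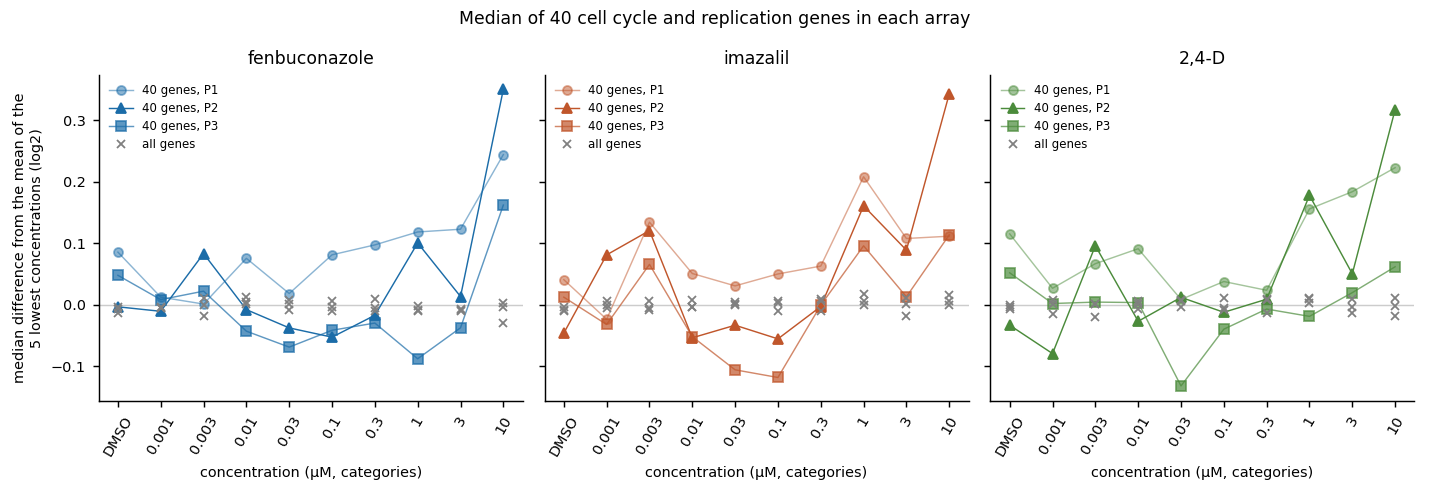
Median over the 40 genes in each array, as the difference from the mean of the 5 lowest concentrations (log2, vertical axis), against concentration in µM as categories, for 3 chemicals; lines join the arrays of 1 P code and crosses are the median over all genes. At 10 µM the P1, P2 and P3 medians were 0.24, 0.35 and 0.16 for fenbuconazole, 0.11, 0.34 and 0.11 for imazalil and 0.22, 0.32 and 0.06 for 2,4-D, while the crosses stay close to 0.

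The 10 µM samples were then set against the 15 arrays of the 5 lowest concentrations (0.001 to 0.1 µM) of the same chemical, a reference that does not use the DMSO samples. With fenbuconazole 14 members rose, against 1.16% of all genes, with imazalil 9, against 1.76%, and with 2,4-D 4, against 0.233%. No member fell, against 1.48%, 1.81% and 0.708% of all genes. The difference was above 0 for 38, 35 and 34 members, with medians of 0.29, 0.22 and 0.21, where the medians of all genes lay within 0.01 of 0. These counts rest on few replicates: without P1, P2 or P3 the members called were 5, 0 and 2 for fenbuconazole, 5, 0 and 0 for imazalil and 0, 0 and 1 for 2,4-D. The share of all genes called, in either direction, fell as well, from 2.64%, 3.57% and 0.941% with all arrays. Without P1, P2 or P3 it was 1.37%, 0.673% and 1.12% for fenbuconazole and 1.54%, 0.905% and 1.14% for imazalil. For 2,4-D it was 0.329%, 0.248% and 0.101%. Without the P code as a block 7, 5 and 2 members were called, against 2.05%, 2.71% and 0.445% of all genes. The medians of the members without P2 were 0.20, 0.13 and 0.14. With the 3 lowest concentrations as the reference 4 members were called for fenbuconazole and 3 for imazalil. The choice of low concentrations over DMSO also matters for single genes: 5 members turned sign between these references with each chemical, and of the members called against the low concentrations 4 of 14, 2 of 9 and 4 of 4 had a difference over 1.5 times that against DMSO. Against DMSO the called members differed by 0.14 to 0.44, 0.19 to 0.39 and 0.10 to 0.24.

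**Figure D2:**
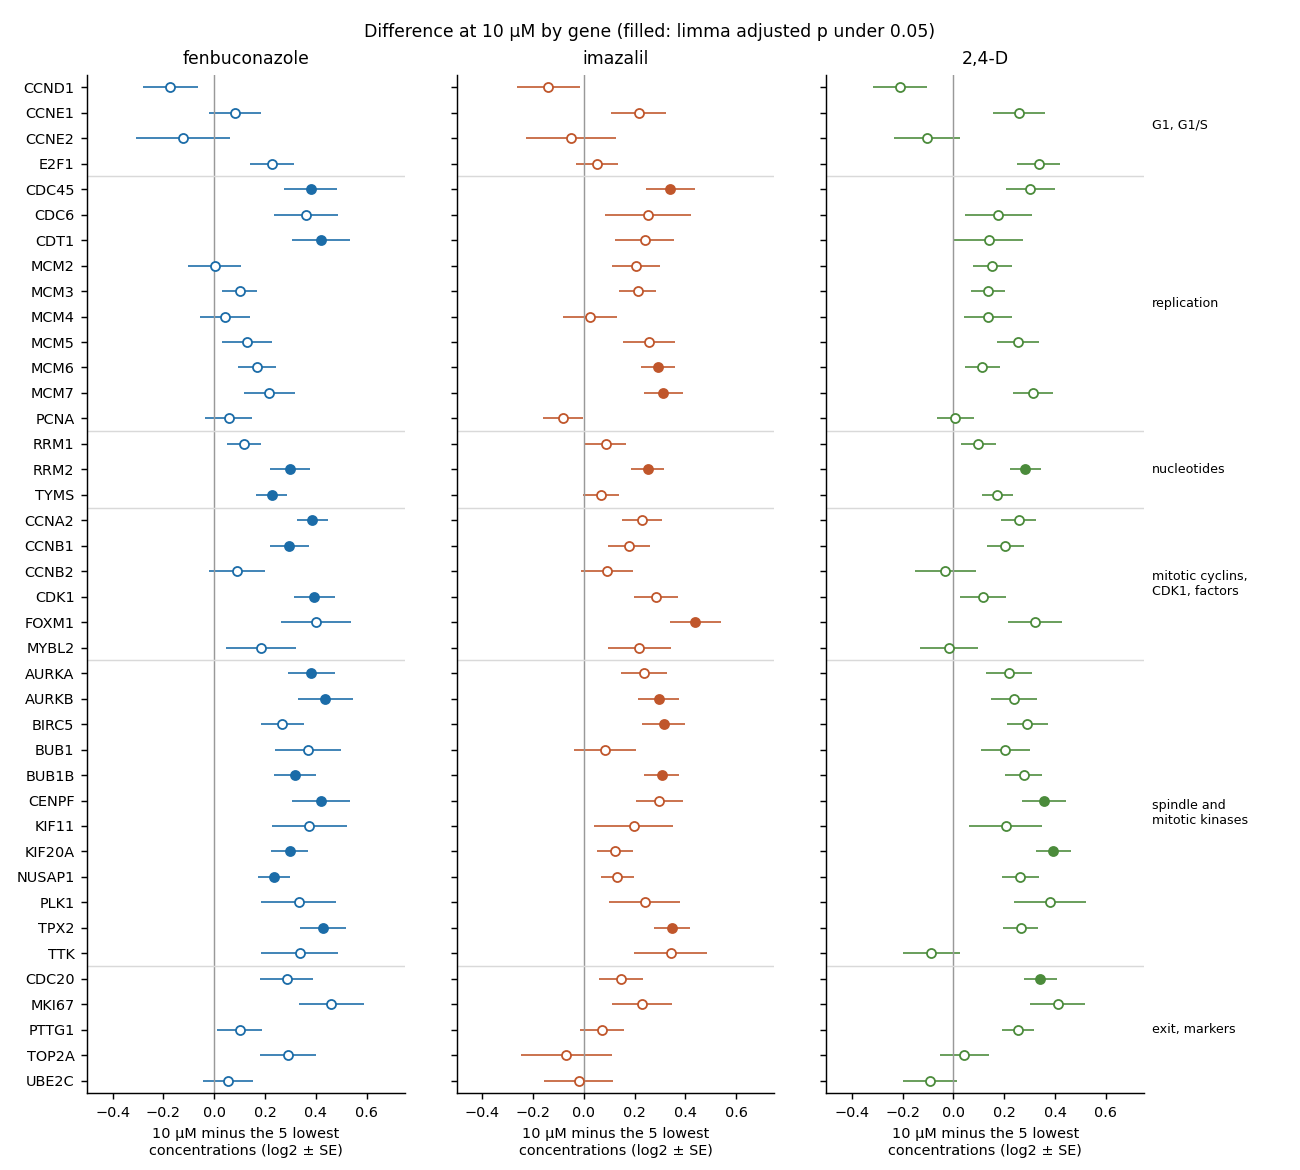
Difference of each of the 40 genes between 10 µM and the 5 lowest concentrations (log2, horizontal axis; points are limma estimates, bars ± 1 SE), ordered by role, for 3 chemicals; filled points passed an adjusted p of 0.05. Filled points number 14, 9 and 4 and all lie to the right of 0, while CCND1 and CCNE2 lie to its left in every panel. Against DMSO CCNE2 lay above 0 with each chemical.

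Of the genes that open the cycle, CCND1, CCNE1, CCNE2 and E2F1, a group of 4, 0 were called with any chemical. As 1.16%, 1.76% and 0.233% of all genes rose and 1.48%, 1.81% and 0.708% fell, 0 of 4 says little about this group. CCND1, cyclin D1, read 7.12, 6.83 and 6.94 at 10 µM fenbuconazole and 6.79 to 7.45 (median 7.14) at the low concentrations, a difference of -0.17 ± 0.11 (limma adjusted p = 0.627). With imazalil it read 7.06, 6.70 and 6.92 against 6.67 to 7.48 (-0.14 ± 0.12), and with 2,4-D 6.88, 6.98 and 7.10 against 6.77 to 7.54 (-0.21 ± 0.11). The 10 µM arrays lay inside the low range each time, and with 2,4-D CCND1 was the 1 member below its own low-concentration mean in all 3 P codes. CCNE2, cyclin E2, which starts S phase, read 5.30, 4.78 and 4.67 with fenbuconazole (low 4.28 to 5.44), 5.12, 5.06 and 5.17 with imazalil (4.37 to 5.68) and 4.84, 5.40 and 4.75 with 2,4-D (4.58 to 5.43). Its differences were -0.12, -0.05 and -0.10, each smaller than its SE. Against DMSO they were 0.24, 0.34 and 0.18, and on its other probe set, against the low concentrations, 0.15, 0.18 and 0.18, so its sign depended on the reference and the probe set. CCND1 differed from DMSO by 0.04 with fenbuconazole. E2F1, a transcription factor of S phase genes, differed by 0.23, 0.05 and 0.34, with adjusted limma p of 0.234, 0.854 and 0.0558. Against DMSO, which read above the low-concentration mean in each set, E2F1 differed by 0.02, -0.13 and 0.05.

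Among the 10 genes of origin licensing and replication, CDC45 and CDT1 rose with fenbuconazole, CDC45, MCM6 and MCM7 with imazalil, and 0 genes with 2,4-D. CDC45 is a part of the active replicative helicase and read 5.31, 5.77 and 5.52 at 10 µM fenbuconazole against 4.87 to 5.46 (median 5.15), a difference of 0.38 ± 0.10 (limma adjusted p = 0.0478). With imazalil it read 5.24, 5.66 and 5.38 against 4.89 to 5.40, 0.34 ± 0.10 (limma adjusted p = 0.0447), with P1 inside the low range for fenbuconazole and P1 and P3 inside it for imazalil. CDT1, which loads the helicase, read 6.60, 6.26 and 6.36 with fenbuconazole against 5.57 to 6.26, a difference of 0.42 ± 0.12 (limma adjusted p = 0.0485). MCM6 read 8.02, 8.16 and 8.06 with imazalil, all above its low range of 7.59 to 7.90, a difference of 0.29 ± 0.07 (limma adjusted p = 0.0103). MCM7, of the same helicase, read 7.97, 8.19 and 7.91 against 7.33 to 7.93 and differed by 0.31 ± 0.08 (limma adjusted p = 0.0161). With 2,4-D MCM7 read 8.06, 7.96 and 7.96, all above a low range of 7.40 to 7.85, but missed the threshold (0.31 ± 0.08, limma adjusted p = 0.0564).

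Other replication genes were not called. MCM2, of the helicase, read 6.74, 7.33 and 7.08 at 10 µM fenbuconazole (low 6.84 to 7.26), 7.07, 7.43 and 7.02 with imazalil (6.74 to 7.24) and 7.31, 7.24 and 7.17 with 2,4-D (6.70 to 7.34), with differences of 0.00 ± 0.10, 0.20 ± 0.10 and 0.15 ± 0.08. PCNA, the sliding clamp of DNA polymerases, read 9.90, 9.81 and 9.67 with fenbuconazole (low 9.53 to 10.06), 9.75, 9.53 and 9.78 with imazalil (9.59 to 9.92) and 9.78, 10.00 and 9.62 with 2,4-D (9.60 to 9.90). Its differences were 0.06 ± 0.09, -0.08 ± 0.08 and 0.01 ± 0.07, and the groups overlapped for both genes with every chemical. The adjusted limma p of MCM2 and PCNA lay between 0.318 and 0.998.

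RRM2 was the only one of the 40 genes past this test with all 3 chemicals. It read 10.03, 10.42 and 10.11 at 10 µM fenbuconazole against 9.66 to 10.09 (median 9.89), a difference of 0.30 ± 0.08 (limma adjusted p = 0.04). With imazalil it read 10.16, 10.42 and 10.11 against 9.79 to 10.12, 0.25 ± 0.07 (limma adjusted p = 0.0257), and with 2,4-D 10.32, 10.28 and 10.16 against 9.77 to 10.20, 0.28 ± 0.06 (limma adjusted p = 0.0184). In each case 2 of the 3 arrays lay above the whole low range, and against DMSO RRM2 differed by 0.17, 0.19 and 0.19 and was not called. TYMS rose with fenbuconazole, reading 10.52, 10.57 and 10.37 against 10.15 to 10.35 (0.23 ± 0.06, limma adjusted p = 0.0468). RRM1, the large subunit of the reductase, differed by 0.12, 0.09 and 0.10 with the 3 chemicals and was not called. Of the 40 genes, 6 rose with 2 chemicals, 12 with 1 and 21 with none.

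Of the 6 mitotic cyclins, CDK1 and transcription factors, CCNA2, CDK1 and CCNB1 rose with fenbuconazole and FOXM1 with imazalil. CCNA2 had the smallest adjusted p of all members: its 10 µM fenbuconazole values of 7.59, 7.69 and 7.59 stood against 7.11 to 7.39 (median 7.24) at the low concentrations, a difference of 0.39 ± 0.06 (limma adjusted p = 0.000238). Means of CCNA2 from 0.001 to 3 µM lay between 7.17 and 7.32, so the higher values were those of the top concentration. With imazalil CCNA2 read 7.57, 7.75 and 7.45 against 7.22 to 7.53 (0.23 ± 0.08, limma adjusted p = 0.129), and with 2,4-D 7.46, 7.63 and 7.42 against 7.13 to 7.46 (0.26 ± 0.07, limma adjusted p = 0.0781). CDK1, the kinase that drives mitosis, read 8.90, 8.82 and 9.00 with fenbuconazole, above its whole low range of 8.17 to 8.78 (0.39 ± 0.08, limma adjusted p = 0.00431). It read 8.81, 8.92 and 8.91 with imazalil against 8.27 to 8.81 (0.28 ± 0.09, limma adjusted p = 0.073) and 8.49, 8.95 and 8.87 with 2,4-D against 8.46 to 8.82 (0.12 ± 0.09). CCNB1, cyclin B1, the main partner of CDK1, read 8.11, 8.26 and 8.02 with fenbuconazole against 7.64 to 8.03 (0.30 ± 0.08, limma adjusted p = 0.0326). FOXM1, a transcription factor of G2 and M genes, read 5.31, 5.53 and 5.18 with imazalil against 4.49 to 5.31 (0.44 ± 0.10, limma adjusted p = 0.0112), and MYBL2 (B-MYB) was not called with any chemical.

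Of the 12 genes of the spindle, the checkpoint and the mitotic kinases, 7 rose with fenbuconazole, 4 with imazalil and 2 with 2,4-D, with group medians of 0.35, 0.27 and 0.26. TPX2, which activates Aurora A and builds spindle microtubules, read 8.12, 8.60 and 8.07 at 10 µM fenbuconazole against 7.42 to 8.03 (0.43 ± 0.09, limma adjusted p = 0.0075). With imazalil it read 8.17, 8.30 and 8.15 against 7.57 to 8.08 (0.35 ± 0.07, limma adjusted p = 0.00381), and both groups of arrays lay above the low range without overlap. With 2,4-D TPX2 read 8.29, 8.30 and 7.94 against 7.72 to 8.15 and missed the threshold (0.26 ± 0.07, limma adjusted p = 0.0657). BUB1B read 7.31, 7.44 and 7.18 with fenbuconazole (low 6.81 to 7.20), and with imazalil 7.31, 7.56 and 7.37, all above 6.79 to 7.27, differences of 0.32 and 0.31 (limma adjusted p = 0.0309 and 0.00908).

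AURKB, the kinase of the chromosomal passenger complex, read 5.96, 6.45 and 6.07 with fenbuconazole, above its low range of 5.49 to 5.94 (0.44 ± 0.11, limma adjusted p = 0.0227), and 5.91, 6.37 and 6.07 with imazalil against 5.70 to 6.02 (0.29 ± 0.08, limma adjusted p = 0.0374). AURKA, Aurora A, which matures the spindle poles, read 7.98, 8.05 and 7.78 with fenbuconazole against 7.23 to 7.83 (0.38 ± 0.09, limma adjusted p = 0.0205). NUSAP1, a microtubule-binding spindle protein, read 8.30, 8.33 and 8.21 with fenbuconazole against 7.87 to 8.23 (0.24 ± 0.06, limma adjusted p = 0.0444). In these 3 genes the P2 array was the highest of the 10 µM fenbuconazole samples. BIRC5 rose with imazalil, reading 7.40, 7.75 and 7.41 against 7.06 to 7.50 (0.31 ± 0.09, limma adjusted p = 0.0355), and 2 of its 3 arrays lay inside the low range.

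KIF20A, a kinesin of the central spindle, had the smallest adjusted p of the members with 2,4-D. It read 7.76, 7.87 and 7.58 against 7.08 to 7.59 (median 7.36), a difference of 0.39 ± 0.07 (limma adjusted p = 0.00352). The DMSO samples of that set read 7.52, 7.49 and 7.47, and the means at 0.03 and 0.1 µM were 7.16 and 7.26, so KIF20A stood below vehicle in part of the reference. With fenbuconazole KIF20A read 7.71, 7.91 and 7.60, all above 7.08 to 7.56 (0.30 ± 0.07, limma adjusted p = 0.0213), and with imazalil the difference was 0.12 ± 0.07. CENPF, a kinetochore protein that accumulates in G2, read 8.12, 8.76 and 8.02 with fenbuconazole against 7.42 to 8.34 (0.42 ± 0.12, limma adjusted p = 0.0461) and 8.22, 8.41 and 7.74 with 2,4-D against 7.49 to 8.06 (0.36 ± 0.08, limma adjusted p = 0.0375). BUB1, TTK, PLK1 and KIF11, a further 3 kinases and a spindle motor, were called with no chemical. Their SEs reached 0.15.

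Among the genes of mitotic exit and the general proliferation markers, CDC20 rose with 2,4-D and 0 genes were called with the other chemicals. CDC20 read 8.26, 8.23 and 7.91 against 7.61 to 8.00 (0.34 ± 0.07, limma adjusted p = 0.00631). Its DMSO samples averaged 8.04, above that whole low range, and against them the difference was 0.10 ± 0.08 (limma adjusted p = 0.902). MKI67, the Ki-67 protein of cycling cells, read 7.04, 7.35 and 6.56 at 10 µM fenbuconazole against 6.21 to 6.93 (median 6.55), a difference of 0.46 ± 0.13 that just missed the threshold (limma adjusted p = 0.0514). With imazalil it read 6.75, 6.81 and 6.49, inside its low range of 6.13 to 7.11 (0.23 ± 0.12), and with 2,4-D 6.86, 6.91 and 6.44 against 6.06 to 6.66 (0.41 ± 0.11, limma adjusted p = 0.0656). On the other probe sets of MKI67 the imazalil differences were 0.50 ± 0.12, 0.35 ± 0.10 and 0.28 ± 0.10. TOP2A, the topoisomerase that untangles chromosomes, read 8.88, 8.28 and 8.30 with fenbuconazole (low 7.80 to 8.52), 8.55, 8.48 and 8.21 with imazalil (8.07 to 9.08) and 8.00, 8.69 and 8.27 with 2,4-D (8.00 to 8.54). The groups overlapped each time, with differences of 0.29 ± 0.11, -0.07 ± 0.18 and 0.04 ± 0.10. TOP2A was the 1 gene whose brightest probe set differed between sets, and in the imazalil set its next brightest differed by 0.25 ± 0.11.

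**Figure D3:**
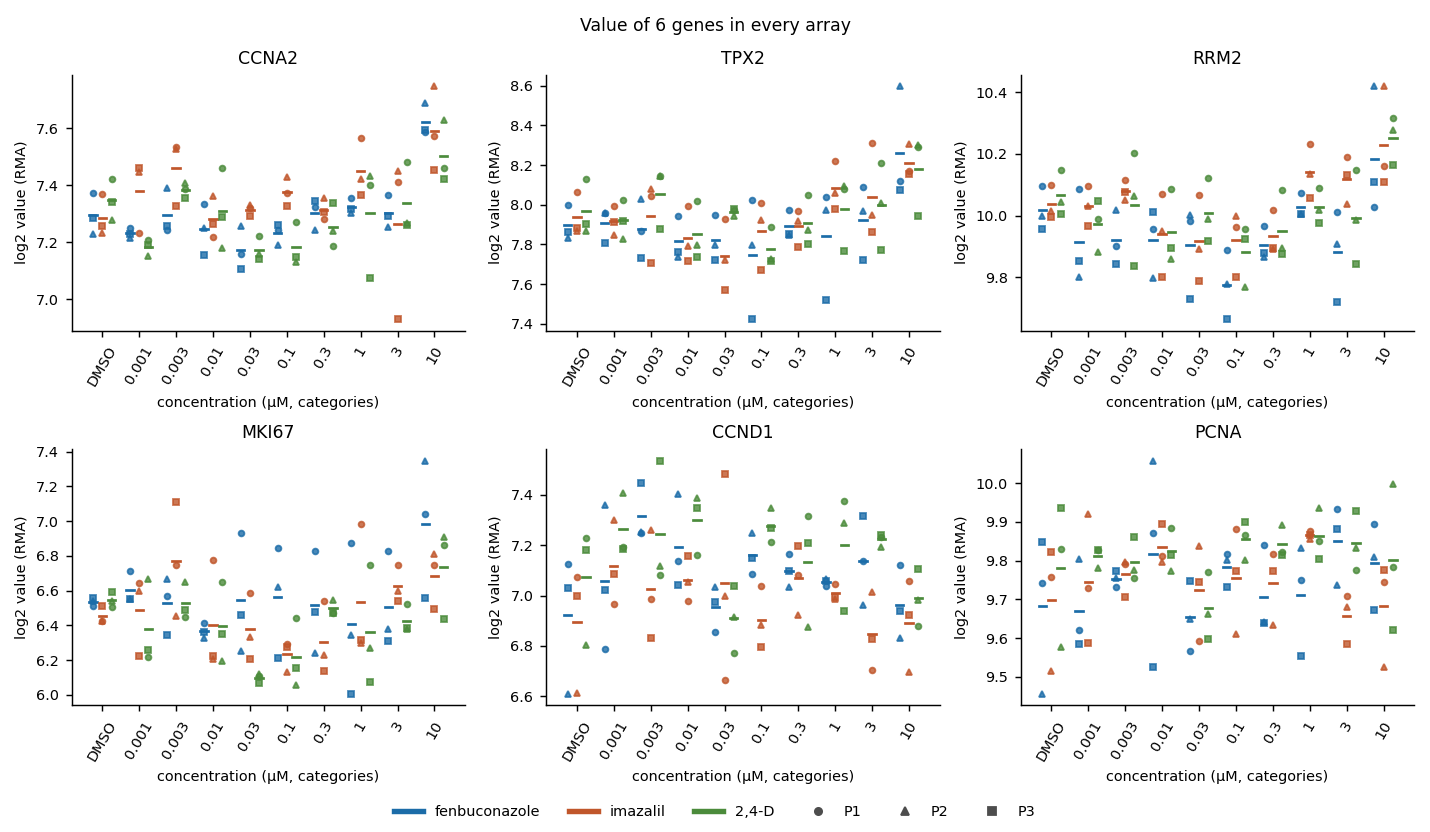
Log2 value (RMA, vertical axis) of 6 genes in every array against concentration in µM as categories; colours are the 3 chemicals, symbols the P codes and short lines the means of 3 arrays. CCNA2, TPX2 and RRM2 have their highest means at 10 µM with each chemical, CCNA2 reaching 7.59, 7.69 and 7.59 with fenbuconazole, while CCND1 and PCNA at 10 µM overlap their values at lower concentrations.

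Most of the probe sets not chosen also read higher at 10 µM. Of the other 42 probe sets of these genes, 34 read higher at 10 µM fenbuconazole than at the 5 lowest concentrations, 36 with imazalil and 31 with 2,4-D. Some of the 42 lay below the array medians, where a sign says little. Examples in the fenbuconazole set are 1 of TOP2A (mean 2.18) and 1 of CENPF (2.06). The same count was not made over all probe sets. The second probe set of CCNA2 differed by 0.19 ± 0.14, 0.39 ± 0.11 and 0.11 ± 0.12 with the 3 chemicals. That of RRM2 differed by 0.27 ± 0.08, 0.13 ± 0.08 and 0.13 ± 0.07. AURKA was called with fenbuconazole alone, but its next brightest probe set differed by 0.40 ± 0.08, 0.38 ± 0.07 and 0.37 ± 0.06. A further probe set of CCND1 differed by -0.11, -0.41 and -0.30, below 0 like the chosen one. The second probe sets of CCNE2 (0.15, 0.18 and 0.18) and of CCNE1 (-0.11, -0.14 and -0.13) had the opposite sign to the chosen ones in every set. That of CCNE1 averaged 2.07, 2.21 and 2.24, below the array medians, so its sign says little.

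The size of the difference at 10 µM varied between P codes, and P2 had the highest median for each chemical. Taking each 10 µM array against the 5 low-concentration arrays of its own P code, the medians over the 40 genes in P1, P2 and P3 were 0.17, 0.35 and 0.19 for fenbuconazole, 0.09, 0.33 and 0.18 for imazalil and 0.18, 0.32 and 0.12 for 2,4-D. In every P code of every chemical at least 29 of the 40 differences were above 0. All 3 P codes were above 0 for 26, 23 and 24 members, and 14 members were above 0 in all 3 P codes of all 3 chemicals: MKI67, CCNA2, CCNB1, BUB1B, AURKB, CDC6, CDC45, RRM1, RRM2, FOXM1, NUSAP1, TPX2, CENPF and BIRC5. MKI67 differed by 0.34, 0.86 and 0.17 in P1, P2 and P3 with fenbuconazole, and CENPF by 0.03, 0.87 and 0.37, whereas CCNA2 differed by 0.34, 0.43 and 0.39. Arrays of the 3 chemicals share these P codes, and the same counts were not made over all genes.

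**Figure D4:**
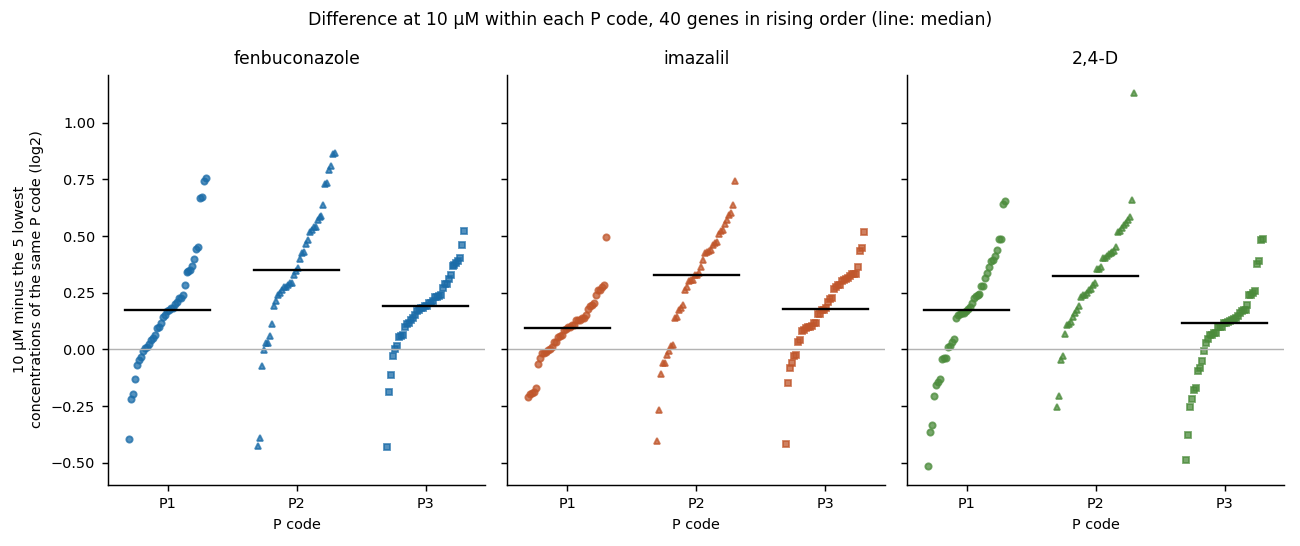
Difference between the 10 µM array and the mean of the 5 lowest concentrations of the same P code (log2, vertical axis) for the 40 genes in rising order, by P code, for 3 chemicals; the black line is the median. The P2 medians of 0.35, 0.33 and 0.32 are the highest in each panel, and PLK1 with 2,4-D in P2 is the highest point (1.13).

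Some members differed between P codes in their level over all concentrations. The shares lay above those of all genes by few genes only, too few to set the members apart by this test. The test between P codes, a limma moderated F in the fit with concentration groups, called 3 members in the fenbuconazole set, where it called 3.34% of all genes, 2 in the imazalil set (3.52%) and 5 in the 2,4-D set (6.01%). P3 read below P1 for 30, 31 and 32 of the 40 genes, against 48%, 47.3% and 46.6% of all genes, in sets that share their DMSO arrays. CENPF, called in every set, averaged 8.07 ± 0.16, 7.95 ± 0.32 and 7.69 ± 0.18 in P1, P2 and P3 of the fenbuconazole set (SD over 10 arrays each; limma adjusted p = 0.0149). In the imazalil set it averaged 7.99, 7.82 and 7.71 (limma adjusted p = 0.0342) and in the 2,4-D set 7.96, 7.92 and 7.65 (limma adjusted p = 0.00228). Without P1, and likewise without P3, 0 members were called in each set.

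MKI67 was called in the fenbuconazole set, averaging 6.76 ± 0.20, 6.53 ± 0.33 and 6.38 ± 0.18 (limma adjusted p = 0.0468), as was the mitotic kinase PLK1, whose P2 and P3 lay 0.35 and 0.48 below P1 (limma adjusted p = 0.0196). TPX2 was called in the imazalil and 2,4-D sets, where P3 lay 0.25 and 0.24 below P1 (limma adjusted p = 0.0124 and 0.00878). CCNB1, RRM2 and FOXM1 were called in the 2,4-D set, with P3 0.20, 0.16 and 0.30 below P1. The rest of the 10 members with the largest F were TPX2, MCM4, TTK, TOP2A, BUB1B, NUSAP1 and CCNE1 in the fenbuconazole set, FOXM1, MCM7, MKI67, KIF11, CCNB2, RRM2, AURKB and PLK1 in the imazalil set, and PLK1, KIF11, CDC20, PTTG1 and MYBL2 in the 2,4-D set. CCNE1, cyclin E1, had P3 above P1, by 0.20.

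**Figure D5:**
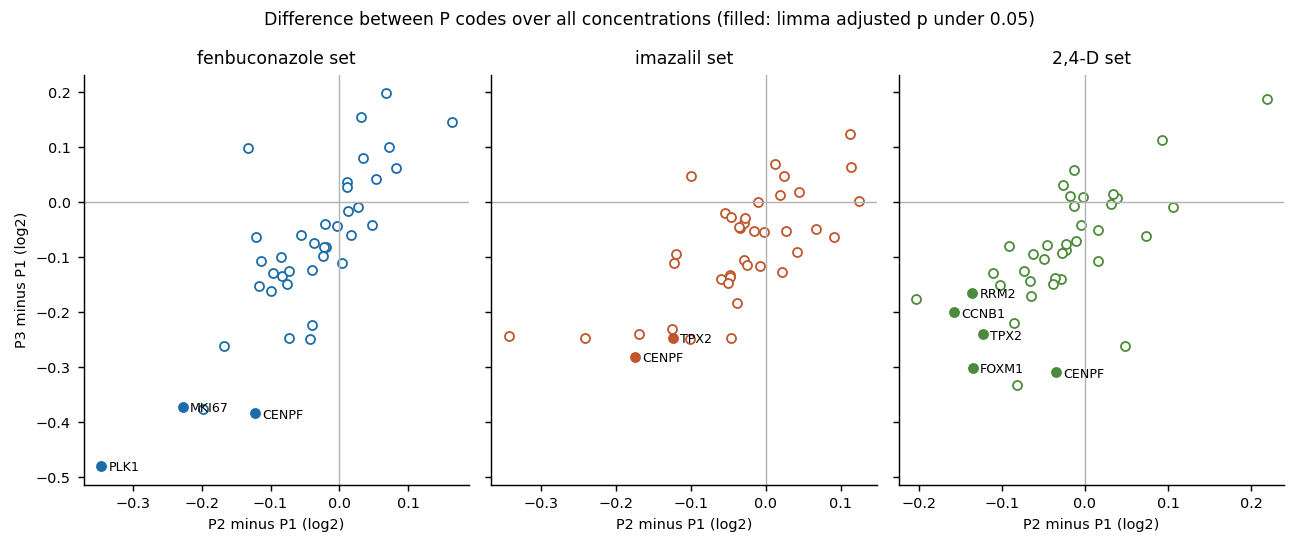
Difference of P3 from P1 (vertical axis) against that of P2 from P1 (horizontal axis), both log2 and over all concentrations, for the 40 genes in each chemical's set; filled, named points passed an adjusted p of 0.05. All filled points, 3, 2 and 5 in number, lie below 0 on both axes, with CENPF filled in every panel and 0.38, 0.28 and 0.31 below P1 in P3.

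Between chemicals at 10 µM, no member differed past the test, where 0.688% of all genes did for fenbuconazole against imazalil, 0.748% for fenbuconazole against 2,4-D and 1.2% for imazalil against 2,4-D. All 40 members were compared in each of these 3 pairs, with limma on treated values minus the DMSO mean of their set. The differences ran from -0.15 to 0.22, from -0.20 to 0.42 and from -0.18 to 0.50, and their 95% intervals reached from -0.53 to 0.56, from -0.58 to 0.80 and from -0.50 to 0.87. At an unadjusted p under 0.05 stood 0, 2 and 2 members. TTK, the checkpoint kinase MPS1, read 0.42 higher with fenbuconazole than with 2,4-D (interval 0.05 to 0.80, limma adjusted p = 0.501) and 0.50 higher with imazalil than with 2,4-D (0.12 to 0.87, limma adjusted p = 0.255). CDK1 stood 0.23 higher with each azole than with 2,4-D (intervals 0.02 to 0.44, limma adjusted p = 0.524 and 0.432). For fenbuconazole against imazalil the smallest p belonged to CENPF, E2F1, PCNA, MKI67 and MCM7, with differences of 0.22, 0.15, 0.13, 0.22 and -0.14.

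Further cell cycle genes from lists outside the 40 were counted in the same comparison of 10 µM with the 5 lowest concentrations. In this comparison 1.16%, 1.76% and 0.233% of all genes rose with fenbuconazole, imazalil and 2,4-D, and 1.48%, 1.81% and 0.708% fell. Of 35 other mitosis genes, 11 rose with fenbuconazole, 7 with imazalil and 7 with 2,4-D, with medians of 0.29, 0.23 and 0.22 and 35, 35 and 34 differences above 0. Examples are the microtubule depolymerase KIF2C (0.49 ± 0.07, limma adjusted p = 0.000155) and the spindle-pole protein ASPM (0.49 ± 0.08, limma adjusted p = 0.000744) with fenbuconazole, the centromere protein CENPM with imazalil (0.64 ± 0.09, limma adjusted p = 8.75e-05) and PRC1, which bundles spindle microtubules, with 2,4-D (0.37 ± 0.06, limma adjusted p = 0.0021). Of 34 other replication genes, 3 rose with fenbuconazole (POLA1, DBF4 and TK1), 9 with imazalil and 0 with 2,4-D, with medians of 0.13, 0.17 and 0.07. The smallest adjusted p with imazalil belonged to PRIM1, the primase subunit (0.30 ± 0.06, limma adjusted p = 0.00581), GINS4 (0.41 ± 0.09) and LIG1, the DNA ligase of lagging strands (0.33 ± 0.08). No gene of the mitosis and replication lists fell.

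Inhibitors of the cycle and p53 targets gave 0 or 1 call per list and chemical. The shares of all genes were 1.16%, 1.76% and 0.233% for rises and 1.48%, 1.81% and 0.708% for falls. Of 10 measured CDK inhibitors and retinoblastoma family genes, CDKN2D, an inhibitor of CDK4 and CDK6, rose with fenbuconazole (0.57 ± 0.13, limma adjusted p = 0.0101) and imazalil (0.56 ± 0.10, limma adjusted p = 0.000795), and 0 were called with 2,4-D. CDKN1A (p21), also a p53 target, differed by 0.17 ± 0.06, -0.03 ± 0.07 and 0.09 ± 0.06 and was not called. Of 14 measured p53 targets, TP53I3 fell with fenbuconazole (-0.25 ± 0.07, limma adjusted p = 0.0412) and GDF15 rose with imazalil (0.56 ± 0.08, limma adjusted p = 2.82e-05). Of 24 other cyclins, CDKs and E2F factors, among them MYC, 0 were called with each chemical. At these shares, 0 calls in a list of this size says little.

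Some markers of cell types were called in the same comparison, in both directions. Of all genes, 1.16%, 1.76% and 0.233% rose and 1.48%, 1.81% and 0.708% fell. Of 7 measured hepatocyte markers CYP3A4, given above as an induced P450 gene, rose with each chemical and TF fell with imazalil (-0.20). The medians of the hepatocyte list were -0.07, -0.02 and -0.04 for fenbuconazole, imazalil and 2,4-D. Of 6 measured biliary markers SPP1 and SOX9 rose with fenbuconazole (0.61 and 0.47), SPP1 rose (0.76) and KRT19 fell (-0.24) with imazalil, and 0 were called with 2,4-D. Of 8 mesenchymal markers DCN fell with each chemical (-0.53, -0.53 and -0.38) and COL3A1 with imazalil (-0.78). Of 7 immune markers CD3D fell with each chemical (-0.97, -1.20 and -0.76) and CD14 rose with imazalil (0.82), and of 5 endothelial markers 0 were called. The mean of the biliary list ran from 5.16 to 5.39 at the 5 lowest concentrations of fenbuconazole and from 5.34 to 5.51 at 10 µM, and for imazalil and 2,4-D from 5.09 to 5.38 against 5.39 to 5.42, and from 5.21 to 5.42 against 5.29 to 5.40. The mesenchymal mean ran from 5.11 to 5.37 against 5.03 to 5.15, from 5.00 to 5.34 against 4.91 to 5.11, and from 5.13 to 5.43 against 5.10 to 5.19. That of the 40 genes ran from 6.63 to 6.80 against 6.86 to 7.07, from 6.61 to 6.90 against 6.87 to 7.04, and from 6.68 to 6.89 against 6.82 to 7.10. Over the 3 sets, the immune mean ran from 3.48 to 3.87 at the low concentrations and reached 3.68 at most at 10 µM, and the endothelial mean from 3.09 to 3.45 and from 3.21 to 3.37. The part of these cell types in the result was not tested.

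The promoters of 4 genes that moved are shown with the short motifs on which cell cycle transcription is known to turn. The genes are RRM2 (called with all 3 chemicals), CCNA2 (fenbuconazole), BUB1B (fenbuconazole and imazalil) and MCM6 (imazalil). The sequences are the 250 bases before the start of the gene, 5′ to 3′ on the gene's strand, from RefSeq (GRCh38.p14). They lie at chr2:10122489-10122738 (plus strand) for RRM2, chr4:121823884-121824133 (minus strand) for CCNA2, chr15:40160819-40161068 (plus strand) for BUB1B and chr2:135876444-135876693 (minus strand) for MCM6. Capitals mark matches, on either strand, to the letters searched for an E2F element (TTTCCCGC, TTTCGCGC, TTTGCCGC or TTTGGCGC), the CHR element (TTTGAA or TTCGAA) or the CCAAT box (CCAAT). Other forms of these elements were not searched, so a stretch in lower case may still hold one.
RRM2: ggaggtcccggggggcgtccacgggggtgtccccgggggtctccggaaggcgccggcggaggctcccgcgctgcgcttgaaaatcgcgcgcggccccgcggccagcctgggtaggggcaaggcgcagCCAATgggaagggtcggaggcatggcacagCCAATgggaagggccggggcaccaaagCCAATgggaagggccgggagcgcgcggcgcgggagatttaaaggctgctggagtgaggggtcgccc
CCNA2: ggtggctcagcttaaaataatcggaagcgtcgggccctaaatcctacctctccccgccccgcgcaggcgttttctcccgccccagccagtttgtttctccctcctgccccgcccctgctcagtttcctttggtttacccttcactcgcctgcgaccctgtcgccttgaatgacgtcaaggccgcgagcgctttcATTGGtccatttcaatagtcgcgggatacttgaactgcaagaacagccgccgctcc
BUB1B: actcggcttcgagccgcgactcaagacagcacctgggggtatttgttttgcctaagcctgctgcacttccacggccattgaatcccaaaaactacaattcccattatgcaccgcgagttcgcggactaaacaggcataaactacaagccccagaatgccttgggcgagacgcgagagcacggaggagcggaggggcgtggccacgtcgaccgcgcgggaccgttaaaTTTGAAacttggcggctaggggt
MCM6: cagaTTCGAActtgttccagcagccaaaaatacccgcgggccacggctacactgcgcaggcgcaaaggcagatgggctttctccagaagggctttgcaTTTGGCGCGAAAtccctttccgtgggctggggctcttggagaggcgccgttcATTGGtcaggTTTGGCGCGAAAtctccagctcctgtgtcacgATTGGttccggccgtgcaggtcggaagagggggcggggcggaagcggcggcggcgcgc
RRM2 held 3 CCAAT boxes, CCNA2 held 1 and BUB1B a CHR element that began at base -23 from the start. MCM6 held 4 E2F matches in 2 overlapping pairs, a CHR element and 2 CCAAT boxes.

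RefSeq promoter windows (250 bases before to 50 after the start) were at hand for 30 of the 40 genes. An E2F element was in 11 of the 30 (36.7%, against 3.33% of 27305 promoters), a CHR element in 13 (43.3% against 16.6%) and a CCAAT box in 24 (80% against 35.7%). Of the 15 genes called with at least 1 chemical at 10 µM against the low concentrations, 6 held an E2F element, 6 a CHR element and 12 a CCAAT box. Of the 15 called with none, 5, 7 and 12 did. No test was made of these counts. A match says only that the letters are in the window, and other forms of the elements were not counted. E2F matches were in CDK1, CDC6, CDT1, MCM2, MCM3, MCM6, MCM7, PCNA, TYMS, E2F1 and NUSAP1, and CHR matches in MKI67, TOP2A, CDK1, CCNB2, BUB1, BUB1B, PLK1, CDC20, MCM6, RRM1, NUSAP1, KIF11 and CENPF.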

How the data were processed

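Affymetrix HT HG-U133+ PM arrays were hybridised, and the authors deposited log2 values. RMA and Partek are named in the submitters' processing notes (versions: not given in the sources used here). Since RMA was applied to 1 chemical at a time and the 3 DMSO arrays entered every run, the 90 columns come from 84 arrays. Precision is limited by how many arrays there are.

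For each set of 30 arrays a model of group means and P code was fitted with limma 3.58.1 (lmFit, eBayes) in R 4.3.3 on all 54715 probe sets. Adjusted p values are Benjamini-Hochberg at 0.05 over 19774 genes, each by its probe set with 1 symbol and the highest mean in the set. Probe sets were named by the platform annotation, and all 82 member probe sets matched a gene table of GRCh38.p14 by Entrez identifier. Chemicals were compared on the 81 treated arrays after subtraction of the DMSO mean of their set. The code was tested on simulated data. Figures used matplotlib 3.10.9.

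The 40 genes, the other lists and the tests were chosen with earlier results of these data known. Genes named with values in every array are 8 fixed genes (MKI67, TOP2A, CCNA2, CDK1, CCND1, CCNE2, MCM2, PCNA) at 10 µM and members past a test, at most 10 by adjusted p; where none passed, the 5 with the smallest p; from other lists up to 3; between P codes the 10 with the largest F. Genes beyond that rule were picked with their values in view.

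The P code was used as the block on the assumption that it marks the independent batches of cells of the study's methods, which the labels do not state. Deviations from group means correlated at a mean r of 0.0979, 0.094 and 0.117 within a P code and -0.0489, -0.0468 and -0.0582 between codes, and the best-correlated code was an array's own in 24, 24 and 29 of 30 cases (fenbuconazole, imazalil, 2,4-D). For 2,4-D the replicate number of the titles differs from the P code at 6 of 9 concentrations. Paired by title number, the mean r was 0.000718, and the own number came first in 10 of 30 cases. Alternatives left out 1 P code or DMSO array or the block, and changed the probe set rule, filter, normalization, variance prior and reference.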

Additional observations from a re-analysis of the deposited data

How the results depend on the processing

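Counts of called members moved with the settings, and so did the share of all genes called. That share is given for 10 µM against the 5 lowest concentrations, where it was counted. With the settings used above it was 2.64%, 3.57% and 0.941% for fenbuconazole, imazalil and 2,4-D. No called direction reversed under the alternatives run, while 5 members per chemical, none called, turned sign between the low concentrations and DMSO as reference. With the P code left out of the block (no replicate block), 7, 5 and 2 members passed at 10 µM against the 5 lowest concentrations for fenbuconazole, imazalil and 2,4-D. Of all genes 2.05%, 2.71% and 0.445% passed. With the title replicate number as block 2 members passed for 2,4-D, against 0.415% of all genes, and 0 differed between the codes. The block changed no other count of members by over 1.5 times. With the 3 lowest concentrations as reference 4 and 3 passed for fenbuconazole and imazalil.

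Leaving out 1 P code gave 0 to 5 (fenbuconazole), 0 to 5 (imazalil) and 0 to 1 (2,4-D) at 10 µM against the low concentrations, 0 against DMSO for fenbuconazole and imazalil, also without 1 DMSO array, and 0 to 5, 0 to 2 and 0 to 5 between P codes. Against the low concentrations the share of all genes ran from 0.673% to 1.37%, from 0.905% to 1.54% and from 0.101% to 0.329%. Below 10 µM 2,4-D gave 0 to 1 member, the 1 without DMSO replicate 3.

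With the mean of a gene's probe sets, 1, 6 and 2 members passed the moderated F, 2 and 5 passed against DMSO (fenbuconazole, imazalil), 14 and 10 against the low concentrations (imazalil, 2,4-D), and 5 and 5 between P codes (fenbuconazole, imazalil). An intensity trend with a robust variance prior gave 1, 5 and 3 for the F, 2 and 2 against DMSO, 13 for 2,4-D against the low concentrations, and 5 and 4 between P codes. Quantile normalization gave 1 for the F of 2,4-D, 0 for fenbuconazole against DMSO, 12 for 2,4-D against the low concentrations, and 5 and 1 between P codes. Genes above the median of all probe sets alone gave 1 for the F of imazalil and 10 for 2,4-D against the low concentrations. Beside these counts against the low concentrations, the mean of probe sets called 3.99% (imazalil) and 1.24% (2,4-D) of all genes. For 2,4-D the share was 1.8% with the trend and robust prior and 1.02% with quantile normalization. Among the genes above the median it was 1.96%. A linear trend gave 3 for imazalil. Without the 2 arrays of 1 sample code, an alternative chosen after seeing the data, 2,4-D gave 0, 5 and 5 for the F, the low concentrations and the P codes. The causes were not tested. Of the alternatives for single named genes, 129 lost the call. Another 266 alternatives were labelled unchanged, a count that holds both single genes and medians over members, which have no threshold.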
